A study of Bos taurus with 28 samples.

Results

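The testis of high-diet bulls at 16 wk was compared with the testis of low-diet bulls 8 wk older, to ask whether the better-fed testis already matched it. The libraries were chosen by title, with 3 from high-diet bulls castrated at 16 wk (H16, bulls 49, 50 and 52) and 4 from low-diet bulls castrated at 24 wk (L24, bulls 5, 6, 7 and 8), which are 7 of the 28 libraries of the series. The 4 low-diet libraries of 16 wk (L16, bulls 9, 10, 11 and 12) served as a reference for distance. All were Holstein bull calves, each library held the RNA of the testicular parenchyma of 1 bull, and the diets ran from 2 wk of age. The high diet had a crude protein content of 20% and a total digestible nutrient content of 71.6%, against 12% and 64.4% in the low diet, and followed a larger daily allowance of milk replacer. Diet and age both differ between H16 and L24, so that neither can be told apart from the other in this comparison. The titles and the age labels of the 11 bulls give the same ages, whereas bull 45, titled as high diet at 24 wk, carries an age label of 16 wk and was kept out of H16. The titles give the same number of bulls per diet and age as the methods of the study.

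Before puberty, the seminiferous tubules of the bull hold mainly Sertoli cells, the somatic cells that later nurse the germ cells, and few germ cells. With age, Sertoli cells stop dividing and mature, spermatogonia multiply and enter meiosis, and Leydig cells between the tubules take over the production of testosterone from cholesterol. Each of these steps changes the RNA of the whole tissue, and in such bulk samples fewer cells of a type cannot be told apart from less RNA in each cell. The counts carry Ensembl transcript identifiers that are not paired with gene names in the files or the reference table used here, so that marker genes of these cell types were not examined. Names are given for the features of the mitochondrial genome, which have the same positions in both.

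Library totals ranged from 3847704 to 4866921 counts in H16, from 2933259 to 5378487 in L24 and from 3237460 to 4621142 in L16. At least 1 count was found for 18236 to 18986 transcripts in an H16 library and for 18455 to 19819 in an L24 library. Within these 3 groups, every pair of libraries differed by more than sampling noise, with a chi-square statistic per transcript of 7.67 or more, and each was taken as a separate sample.

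The H16 testis differed from the L24 testis. Of 15804 transcripts tested, 265 (1.68%) differed between H16 and L24, of which 205 (1.30% of those tested) were higher and 60 (0.380%) lower in H16. Log2 fold changes, positive where H16 had the higher count, lay between 0.52 and 4.42 for the transcripts that were higher (median 1.32). For the transcripts that were lower they lay between -0.65 and -5.53 (median -1.52). A change of more than 1 on the log2 scale, in either direction, was found for 191 of the 265 (72.1%), beside 1343 (8.50%) of all tested. For 254 of the 265, no H16 bull overlapped with any L24 bull in CPM, the count scaled to a common normalised library size. Over all transcripts tested, the groups did not overlap for 2503 (15.8%), with H16 above for 9.42% and below for 6.42%. The calling favours large changes and groups that do not overlap, so that the 191 and the 254 follow in part from the choice. Transcripts were called in edgeR by a quasi-likelihood test over the 28 libraries, at a Benjamini-Hochberg adjusted p-value under 0.05. The number of calls depended on single bulls. Among the fits without 1 H16 bull, 219 transcripts were higher and 33 lower without bull 49, 55 and 8 without bull 50, and 71 and 50 without bull 52. Among those without 1 L24 bull, 73 were higher and 15 lower without bull 5, 48 and 13 without bull 6, 302 and 131 without bull 7, and 73 and 20 without bull 8. With bull 45 counted as an H16 bull, as its age label has it, 1 transcript was called.

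**Figure D1:**
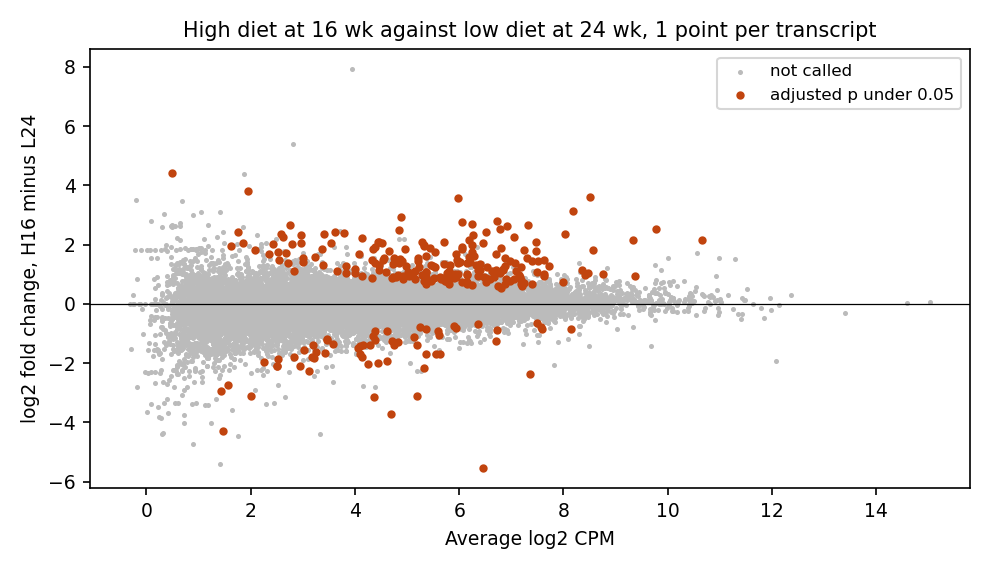
Log2 fold change of H16 minus L24 (vertical axis) against average log2 CPM (horizontal axis) for the 15804 transcripts tested, with 1 point per transcript. The 265 transcripts with an adjusted p-value under 0.05 are in orange, 205 of them above 0 and 60 below.

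Fewer transcripts were called between the low-diet groups of 16 and 24 wk. Between L16 and L24, 2 transcripts (0.0127%) differed in edgeR, both lower in L16, whereas DESeq2 called 28, of which 7 were higher and 21 lower in L16. In edgeR, 936 (5.92% of those tested) had an unadjusted p-value under 0.05, against 2230 (14.1%) between H16 and L24. The L16 comparison had 1 more library than that of H16, and the difference between these numbers was not tested. The interquartile range of all log2 fold changes was 0.59 for H16 minus L24 and 0.41 for L16 minus L24, and the groups did not overlap for 647 transcripts (4.09%) in the latter, with L16 above for 2.37% and below for 1.72%. The number of calls between L16 and L24 was 0 without bull 9, 10 or 12, 1 without bull 5 or 8, and 14 without bull 7, again by edgeR's quasi-likelihood test.

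The signed difference of H16 from L24 minus that of L16 from L24 is, for each transcript, the contrast of H16 against L16, since the L24 libraries cancel. By the edgeR test of this contrast, 50 transcripts (0.316%) differed, all higher in H16. The groups did not overlap for 7.79% of transcripts, with H16 above for 4.73% and below for 3.06%. The number of calls was 10 without bull 50, 11 without bull 52, 10 without bull 10, 25 without bull 12 and 18 without bull 9, and was 0 with bull 45 counted as H16. For these 50, the median log2 difference was 1.73 for H16 minus L16, which chose them, 1.82 for H16 minus L24 and 0.06 for L16 minus L24. These comparisons share libraries. The mean log2 CPM of L24 was below that of L16 for 27 of the 50, nearer to L16 than to H16 for another 22, and nearer to H16 for 1. The choice of these transcripts favours those with low values in L16.

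Among the 205 transcripts that were higher in H16 than L24, the mean of L16 lay between those of both groups for 186, nearer to L24 for 149 and nearer to H16 for 37, and below L24 for 19. The median log2 difference was 0.38 for L16 minus L24 and 0.95 for H16 minus L16. Among the 60 that were lower in H16, L16 lay between both for 57, nearer to L24 for 30 and nearer to H16 for 27. It lay beyond L24 for 1 and beyond H16 for 2. The median log2 difference of these 60 was -0.60 for L16 minus L24 and -0.77 for H16 minus L16. Expressed as a position from 0 at the level of L24 to 1 at that of H16, the median position of L16 was 0.288 for the transcripts higher in H16 and 0.494 for those lower. The choice of these transcripts widens the gap between H16 and L24, whereas the L16 libraries had no part in it beyond the shared estimate of the spread. A group outside such a choice tends to fall between the chosen groups. The place of L16 between both therefore follows in part from the choice, and its share over all transcripts was not counted.

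By library, the median log2 CPM of the 205 transcripts relative to the mean of L24 was 0.97 in bull 49, 1.34 in bull 50 and 1.45 in bull 52. It ranged from 0.17 to 0.53 in the L16 bulls. In L24 it was -0.04 in bull 5, -0.26 in bull 6, 0.37 in bull 7 and -0.09 in bull 8. Bull 7 therefore stood among the L16 bulls for these transcripts. For the 60 lower in H16, its median was -0.41, just outside the range of the L16 bulls (-0.42 to -0.71), whereas those of the other L24 bulls were between 0.09 and 0.15. The H16 bulls had medians of -1.22, -1.64 and -1.19 for these 60. The H16 and L24 bulls chose the transcripts of both sets, so that the distance of the H16 medians from L24 and L16 follows in part from the choice.

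**Figure D2:**
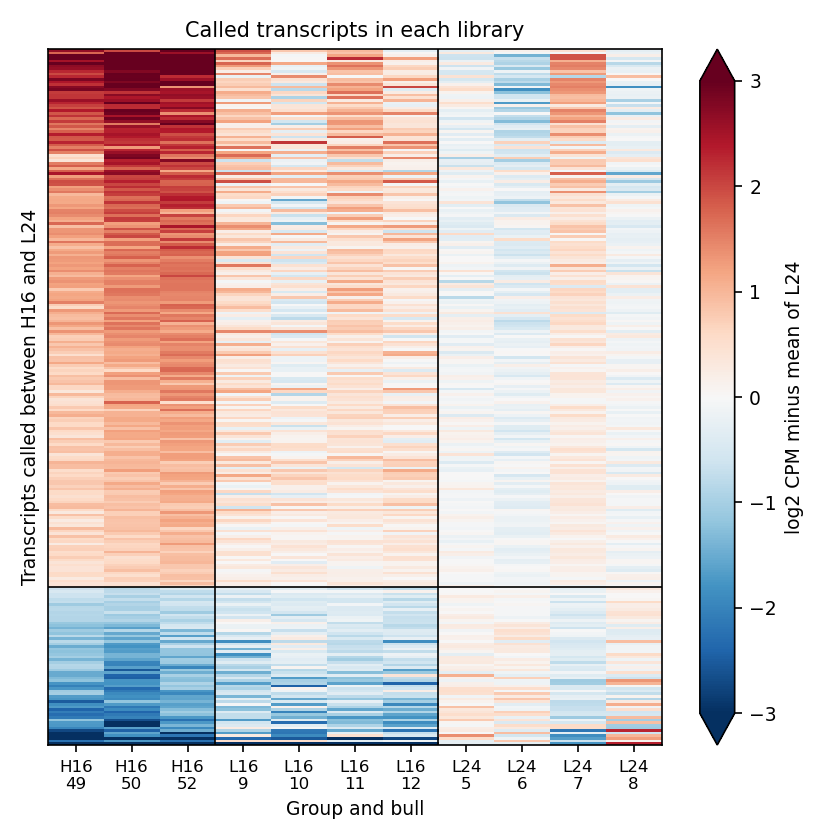
Log2 CPM of each of the 265 transcripts called between H16 and L24 (rows) in each library of H16, L16 and L24 (columns, with the bull number), relative to the mean of L24 and ordered by fold change. Red is higher and blue lower than the L24 mean, and the horizontal line separates the 205 transcripts higher in H16 from the 60 lower. The L16 columns are paler than the H16 columns in both blocks. The rows were chosen by H16 against L24, so that paler L16 columns follow in part from the choice.

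Restricted to transcripts that averaged 1 or more in log2 CPM and whose H16 and L24 values did not overlap, the calls comprised 199 that were higher and 54 that were lower in H16. Of these, the 2 with the largest fold change in each direction are described here, with coordinates in UMD3.1. None of the named transcripts shares exonic bases with another transcript on its strand.

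The largest increase among these was that of ENSBTAT00000028766, a transcript of 2 exons on the reverse strand at chr2:112549869-112555375. Its CPM was 4.95, 34.4 and 9.08 in H16 bulls 49, 50 and 52. In the L24 bulls it was 1.48, 1.04, 1.06 and 0.911 for bulls 5 to 8, from between 3 and 6 counts in a library. The L16 bulls held 1.14 to 4.86. All H16 values lay above all values of the low-diet groups, but bull 49 was close to the highest L16 value. The log2 fold change of H16 against L24 was 3.81 (standard error 0.70, adjusted p = 0.00474 by edgeR). Without bull 50, which had the highest value, it was 2.60, and the adjusted p-value of the same test was 0.118.

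ENSBTAT00000015713 followed, with 12 exons on the forward strand at chr20:31451386-31474239. It was among the more abundant transcripts of H16, with a CPM of 1321 in bull 49, 2177 in bull 50 and 2292 in bull 52. L24 bulls 5, 6, 7 and 8 had 71.5, 40.7, 406 and 124, and the L16 bulls ranged from 106 to 251. The H16 values were therefore above every low-diet value at both ages, and the ranges of L16 and L24 overlapped. The log2 fold change was 3.59 against L24 (standard error 0.62, edgeR adjusted p = 0.00309) and 3.47 against L16 (standard error 0.62, edgeR adjusted p = 0.00769). That of L16 against L24 was 0.12 (standard error 0.55).

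The largest decrease among these was that of ENSBTAT00000001959, with 4 exons on the reverse strand at chr13:75122286-75129707. Its CPM was 1.98, 0.441 and 2.48 in H16 bulls 49, 50 and 52. In L24 it was 35.0 in bull 5, 34.6 in bull 6, 12.0 in bull 7 and 217 in bull 8. L16 values ran from 1.40 to 4.86 and overlapped with those of H16, so that both groups of 16 wk lay below every L24 bull. The log2 fold change against L24 was -5.53 for H16 (standard error 0.83, edgeR adjusted p = 0.000785) and -4.34 for L16 (standard error 0.66, edgeR adjusted p = 0.00819). With bull 45 counted as H16, the former was -1.28. The log2 fold change of H16 against L16 was -1.19 (standard error 0.93), with an edgeR adjusted p-value of 0.873.

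ENSBTAT00000015645, with 5 exons on the forward strand at chr13:48435003-48449940, was lower in H16 than in L24. It had 1 count in bull 50 and 0 in the other H16 bulls, 38 counts over the L24 bulls and 40 over the L16 bulls. CPM ranged from 1.06 to 3.81 in L24 and from 1.44 to 3.01 in L16. The ratio of H16 to L24 was 0.0344 (95% exact interval 0.000849 to 0.204, for counting error alone), and its adjusted p-value was 0.036 by edgeR. Against L16, the edgeR adjusted p-value was 0.074. Leaving out any 1 of the 7 bulls other than bull 7 of L24 gave an edgeR adjusted p-value between 0.062 and 0.145.

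The other transcript that differed between L16 and L24 was ENSBTAT00000006425, with 28 exons on the forward strand at chr11:10283282-10403977, and is named here because only 2 passed. Its CPM was 28.6, 18.0, 5.99 and 48.0 in L24 bulls 5 to 8, 1.98, 1.76 and 1.93 in H16 bulls 49, 50 and 52, and 1.68 to 3.47 in L16. The values of both groups of 16 wk lay below those of L24 and overlapped with each other. The log2 fold change against L24 was -3.71 for H16 (standard error 0.63, adjusted p = 0.00282) and -3.21 for L16 (standard error 0.54, adjusted p = 0.0196) in edgeR.

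**Figure D3:**
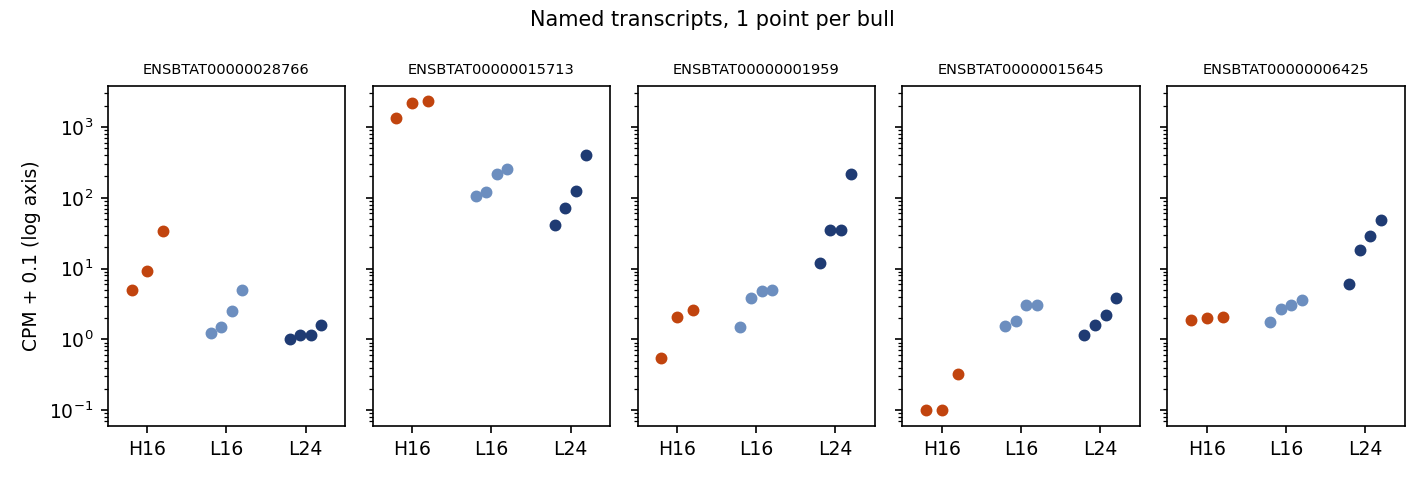
CPM of the 5 named transcripts, plotted as CPM + 0.1 on a log axis, with 1 point per bull in H16, L16 and L24. ENSBTAT00000015713 is at 1321 to 2292 in H16 and at most 406 in each low-diet bull, whereas ENSBTAT00000001959 and ENSBTAT00000006425 are low in both groups of 16 wk and higher in L24.

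Distance between libraries was measured as the root mean square of the difference in log2 CPM over all transcripts tested. H16 and L24 libraries were 0.725 apart on average (12 pairs, 0.539 to 0.806), and L16 and L24 libraries 0.636 (16 pairs, 0.530 to 0.789). H16 was thus farther from L24 than L16 was by 0.0888 on average, although the ranges of the pairs overlapped. The spread among bulls of 1 group was of similar size, at 0.680 within H16 (3 pairs), 0.660 within L16 (6 pairs) and 0.555 within L24 (6 pairs). H16 and L16 libraries were 0.703 apart (12 pairs). Pairs share libraries, and no test was made of these distances.

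By library, bull 49 was 0.655 from the L24 bulls on average and 0.675 from the L16 bulls, bull 50 was 0.745 and 0.709, and bull 52 was 0.775 and 0.725. Bulls 50 and 52 were thus nearer on average to L16 than to L24. The mean distance to the other H16 bulls was 0.664 for bull 49, 0.629 for bull 50 and 0.747 for bull 52. On average, bull 49 was therefore slightly nearer to L24 than to H16, and bull 52 nearer to L16 than to H16. The nearest library to bull 49 was bull 7 of L24, at 0.539, that to bull 50 was bull 49, at 0.547, and that to bull 52 was bull 11 of L16, at 0.607. Bull 7 was the single L24 library whose nearest library was in another group, bull 11 of L16, at 0.530.

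**Figure D4:**
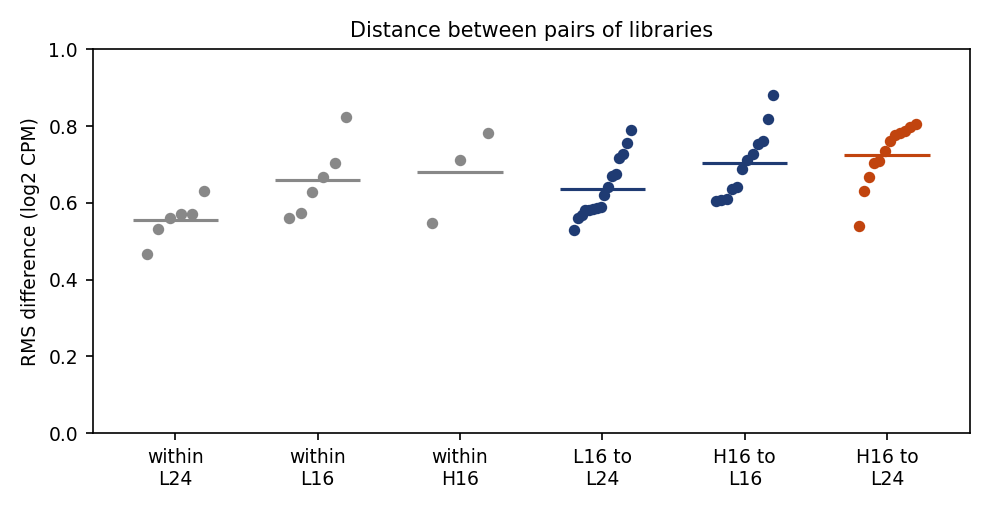
Root mean square difference in log2 CPM (vertical axis) between pairs of libraries within and between H16, L16 and L24, with 1 point per pair and the mean as a line. The pairs of H16 and L24 (orange) average 0.725, above the 0.636 of L16 and L24, with overlapping ranges.

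Progress along the age course of the low diet was measured with transcripts chosen from other bulls. An edgeR fit to the 4 low-diet libraries of 8 wk and the 4 of 32 wk gave the 200 transcripts with the smallest p-values among those higher at 32 wk (rising) and the 200 among those lower (falling). The age score of a library was the mean log2 CPM of the rising minus that of the falling transcripts. H16, L16 and L24 libraries had no part in the choice of the list. The score is a description and was not tested.

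The age score of H16 was far below that of L24 and not above that of L16 on average. It was -1.55 in bull 49, -2.13 in bull 50 and -1.28 in bull 52, a mean of -1.65 (SD = 0.437, n = 3). Scores of the L16 bulls lay between -1.34 and -0.93, a mean of -1.10 (SD = 0.175, n = 4). L24 scores were 0.27 in bull 5, 0.00 in bull 6, -1.04 in bull 7 and 0.71 in bull 8, with a mean of -0.01 (SD = 0.744, n = 4). No H16 bull overlapped with L24, whereas the ranges of H16 and L16 overlapped, and bull 7 of L24 lay within the range of L16. For scale, the bulls that chose the list scored between -2.84 and -2.65 at 8 wk and between 1.76 and 2.28 at 32 wk. The mean of H16 was below that of L24 by 1.64 and that of L16 by 1.08. With each of the 12 other versions of the list or its scaling, the mean of H16 was again below that of L16, by 0.35 to 0.59. All versions scored the same H16 and L16 bulls, so that this range does not show the spread between bulls.

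**Figure D5:**
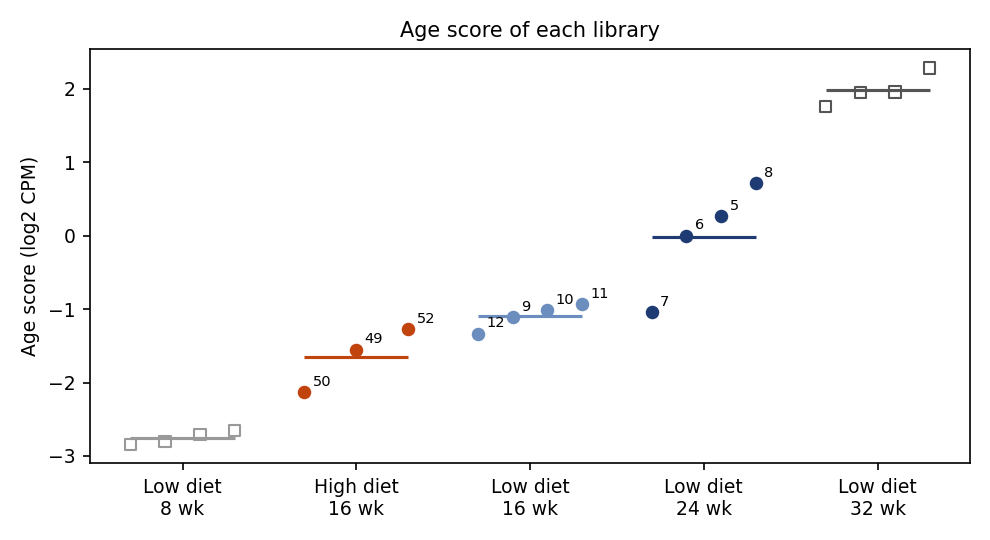
Age score of each library, the mean log2 CPM of 200 transcripts that rose between 8 and 32 wk in the low diet minus that of 200 that fell. Filled points are H16, L16 and L24 bulls with their numbers, open squares are the bulls that chose the list, lines are group means, and the H16 bulls lie below the L16 bulls except for bull 52, which is above bull 12.

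Most transcripts of the age list, taken one by one, lay on the same side of L24 in H16. Of the 200 rising transcripts, 193 had a lower fitted level in H16 than in L24, with a median log2 difference of -0.85, beside a median of -0.01 over all transcripts tested. For L16 minus L24 the median was -0.45, and for H16 minus L16 it was -0.35, with 152 lower and 48 higher in H16. Of these 200, 16 (8%) were called lower in H16 than L24, beside 0.380% of all transcripts, and 0 were called higher. Of the 200 falling transcripts, 197 had a higher fitted level in H16 than L24, with a median of 0.71. The medians were 0.51 for L16 minus L24 and 0.19 for H16 minus L16, with 148 higher and 52 lower in H16. Among them, 31 (15.5%) were called higher in H16, beside 1.30% of all transcripts, and 0 lower. Both lists were chosen by small p-values, which favours transcripts with little spread between bulls. The libraries that chose them also entered the estimate of spread behind these calls. The larger shares called in both lists, 8% and 15.5%, therefore follow in part from the choice. Between H16 and L16, 1 of the falling transcripts was called higher in H16 and 0 of the rising ones were called in either direction, by edgeR's quasi-likelihood test.

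The number of calls in these lists depended on single bulls in both groups. Calls among the rising transcripts numbered 11, 4 and 21 without bull 49, 50 or 52, beside 33, 8 and 50 lower over all transcripts. Without bull 5, 6, 7 or 8 they numbered 6, 7, 52 and 5, beside 15, 13, 131 and 20 over all transcripts. Among the falling transcripts they numbered 31, 3 and 8 without bull 49, 50 or 52, beside 219, 55 and 71 higher over all transcripts. Without bull 5, 6, 7 or 8 the falling calls numbered 7, 3, 49 and 7, beside 73, 48, 302 and 73 over all transcripts. The medians moved less, and stayed between -1.09 and -0.71 for the rising and between 0.63 and 0.81 for the falling transcripts over the 7 fits that each left out 1 bull. With bull 45 counted as H16, calls numbered 0 in both lists, beside 1 over all transcripts, and the medians were -0.38 and 0.49.

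An adjusted p-value above the threshold does not show that H16 and L24 match. The width of the interval of each fold change was therefore counted, with limma voom on the same libraries. Of the 15804 transcripts, 7880 (49.9%) had a 95% interval that lay within 1 of 0 on the log2 scale. Among the 6213 transcripts with an average log2 CPM of at least 5, the number was 4736 (76.2%). The interval lay within 1 and also held 0 for 7477 (47.3%) of all tested and for 4397 (70.8%) of the more abundant ones. An interval within 1 can thus still leave out 0. The median interval was 1.32 wide on the log2 scale over all transcripts and 0.98 wide among the more abundant ones. For the transcripts whose interval reached beyond 1, a match within that limit cannot be stated at this depth and number of bulls.

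Calls were found at all levels of expression, and their share rose with the level. The share of transcripts called between H16 and L24 was 0.131% under an average log2 CPM of 1, 0.787% from 1 to 3, 1.43% from 3 to 5, 2.55% from 5 to 7 and 2.80% above 7. Transcripts that were higher in H16 had a median of 5.77 in average log2 CPM and 9 exons, and those that were lower had 4.38 and 6 exons, beside 4.40 and 8 exons over all tested. Single-exon transcripts made up 4.39% of those higher, 13.3% of those lower and 7.46% of all tested. A call was found on each of the 29 autosomes and on chromosome X. Among the autosomes and chromosome X, the highest shares were those of chromosomes 26 and X, beside 1.68% over all tested. Chromosome X held 22 of the calls among 658 tested transcripts (3.34%), 12 higher and 10 lower. Chromosome 26 held 11 among 292 (3.77%), 9 higher and 2 lower, and chromosome 8 came next at 2.80%. The lowest share was that of chromosome 25, where 1 of 564 was called (0.177%). These shares were not tested.

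Of the 37 features of the mitochondrial genome, 18 passed the filter on low counts, and 0 were called between H16 and L24 (smallest edgeR adjusted p = 0.229). The 18 were 13 protein-coding features, which encode subunits of the respiratory chain and of ATP synthase, 2 rRNAs of the mitochondrial ribosome and 3 tRNAs. The log2 fold changes of the 13 protein-coding features ranged from -0.52 to 0.33, with a median of 0.02. *ND3* and *ND5*, both subunits of NADH dehydrogenase, were at these ends. The CPM of *ND3* was 2793, 2003 and 2272 in H16 and 3200, 2304, 2958 and 5048 in L24, and its log2 fold change was -0.52 (standard error 0.38). That of *ND5* was 2096, 1710 and 2292 in H16 and 1891, 917, 1479 and 2172 in L24, with a log2 fold change of 0.33 (standard error 0.35). Both pairs of groups overlapped. For *COX1*, a subunit of cytochrome c oxidase, the log2 fold change was 0.02 (standard error 0.35).

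The mitochondrial feature with the largest difference was the rRNA ENSBTAT00000060540, at positions 1453 to 3023 of the mitochondrial genome. Its CPM was 5109, 2127 and 1031 in H16 and 10347, 1711, 16004 and 13676 in L24. Bull 6 of L24 fell within the range of H16, and the L16 bulls ranged from 1543 to 5425. The log2 fold change was -1.92 (standard error 0.77, adjusted p = 0.229 by edgeR). The other rRNA, ENSBTAT00000060546 at positions 431 to 1385, had a log2 fold change of 0.07 (standard error 0.30).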

How the data were processed

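Strand-specific mRNA libraries were prepared from total RNA. TopHat and Bowtie2 were the aligners of the authors, UMD3.1 the genome, and per the file headers the deposited counts are whole reads on the exons of each of 26740 Ensembl release 87 transcripts, from featureCounts 1.5.0-p2 without normalization. The recorded command sets no strand option and does not count a read on more than 1 transcript, so that reads on exonic bases shared by transcripts are left out and reads from antisense partners cannot be told apart.

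Groups were taken from the titles. edgeR 4.0.16 (R 4.3.3) was used with TMM factors, filterByExpr over the 8 groups of diet and age, and quasi-likelihood F tests in 1 model of the 28 libraries, with a coefficient per group. The standard error is the fold change over the root of F. Log2 CPM used a prior count of 2. Intervals came from limma 3.58.1 (voom), and DESeq2 1.42.0 was an alternative. P-values set the difference between groups against the spread between bulls within groups, estimated over the 28 libraries. Transcripts were named by fold change (2 in each direction) among those past the adjusted threshold of 0.05, averaging 1 or more in log2 CPM and without overlap. No transcript identifier could be looked up in the RefSeq table (ARS-UCD2.0), and the 37 mitochondrial features were matched by start and end. Gene lists that need names were not used. The comparison and lists were chosen with earlier results of these data known.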

Additional observations from a re-analysis of the deposited data

Results flagged for a closer look

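In groups of 4 bulls, the CPM of ENSBTAT00000001959 in bull 8 of L24 was 217, and its gap to the next of the 4 values took up more of their range than Dixon's 95% critical value allows. Chance alone flags about 1 in 20 such groups of normally distributed values, and 24 sets of 4 values were examined. CPM was used without logs, and this transcript was chosen for its difference from L24, so that this rate need not hold here. Without bull 8, this transcript still differed between H16 and L24, as it did in each of the 7 fits that left out 1 bull (log2 fold change of -5.95 to -4.10, highest adjusted p = 0.0156 by edgeR). H16, with 3 bulls, was not examined in this way.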

How the results depend on the processing

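The number of transcripts called between H16 and L24 was within 1.5 times that reported with DESeq2's size factors, other filters, without mitochondrial features, with 1 transcript per group of shared exonic bases, in edgeR fits to fewer libraries and with limma voom, the last added after the data had been seen. The transcripts called were not all the same. In these settings, between 197 (74.3%, the edgeR fit to the 2 groups) and 265 (1 transcript per group of shared exonic bases) of the 265 were called again. DESeq2 called 531 (354 higher and 177 lower in H16). The age label of bull 45, titled 24 wk, reads 16 wk. With this bull placed in H16, the number fell to 1 (1068 of 15804 tested at an unadjusted p-value under 0.05 in edgeR). That between H16 and L16 fell to 0 (927 of 15804 at that level). Leaving out 1 bull gave 61 to 433 calls between H16 and L24, 0 to 14 between L16 and L24 and 10 to 54 between H16 and L16. DESeq2 gave 28 calls between L16 and L24 (7 higher and 21 lower in L16) and 106 between H16 and L16. Between L16 and L24, the number was also 4 in the edgeR fit to these 2 groups. It was 0 with at least 10 counts in every library (754 of 11755 tested at an unadjusted p-value under 0.05 in edgeR). With limma voom it was 0 as well (963 of 15804 at that level). The cause of these shifts was not tested.

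H16 was farther from L24 than L16 was in each setting. The difference was 0.330 over the 500 most variable transcripts, 0.0102 as 1 minus Spearman's correlation, and 0.0637 to 0.126 when 1 bull was left out. The age score of H16 minus that of L24 was -0.87 with all 1958 rising and 1781 falling transcripts past the adjusted threshold, a longer list of smaller changes, and -1.98 to -1.39 when 1 bull was left out of the scored groups or of those that chose the list. No paired analysis was possible because bull numbers do not recur between groups. Depth limits what can be said of low counts, as for ENSBTAT00000015645.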

Other observations

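On the age score of the low diet, the high-diet bulls scored -2.49 and -2.28 at 8 wk, between 0.89 and 1.76 at 24 wk, and between 0.94 and 2.62 at 32 wk. The mean high-diet score was thus 0.56 below the low-diet score at 16 wk, with overlapping ranges, whereas at 24 wk each of the 4 high-diet bulls scored above each of the 4 low-diet bulls, whose highest value was 0.71. The score was not tested at either age.

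Bull 45, whose title and age label disagree, had an age score of 1.24, within the range of the other high-diet bulls titled 24 wk (0.89 to 1.76) and above those of H16 (-2.13 to -1.28). Its CPM was 106 for ENSBTAT00000015713, 117 for ENSBTAT00000001959 and 42.2 for ENSBTAT00000006425, in each case outside the range of H16. Its group was taken from its title and not from these values. The transcripts were chosen with bull 45 outside H16, so that its CPM values for them cannot decide between title and label.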
